A study of Mus musculus with 9 samples.

Results

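The genes described are the receptors, co-receptors and ligands of the vascular endothelial growth factor (VEGF) family, taken as the rows of the read count table whose gene name is Flt1, Kdr, Flt4, Nrp1, Nrp2, Vegfa, Vegfb, Vegfc or Pgf. Each of the 9 names matched 1 row of the 46078 genes in the table, and all 9 passed the filter on low counts, as did 15937 genes in all. The study asked how Sca-1+ and Sca-1- endothelial cells (ECs) of the normal mouse bone marrow (BM) differ in gene expression. Both fractions came from untreated wild type mice of the B6 strain and were sorted within one gate, CD45-Ter119-CD31+, which leaves out leukocytes and erythroid cells and keeps cells with the junction protein CD31; Sca-1, the product of Ly6a, then divided them. Poly(A) RNA was sequenced in 4 Sca-1+ libraries, named here by the end numbers of their labels as 7, 13, 15 and 19, and in 5 Sca-1- libraries, 8, 10, 14, 16 and 22. Neither age nor sex is given, and the labels do not say whether each library is 1 mouse or a pool, so p-values measure the spread between libraries. The titles of Sca-1+ library 15 and Sca-1- library 16 share a number, so these 2 may come from 1 mouse, whereas the tests take all libraries as independent unless a block is named. Titles also differ in a label: those of libraries 8, 15, 16 and 19 contain wt. Those of 10, 13, 14 and 22 have another label in its place, and that of 7 has neither. Each label occurs in both fractions, its meaning is not given, and its part in the results was not tested.

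VEGF ligands are secreted dimers that bind receptor tyrosine kinases on ECs. Kdr (VEGFR2) carries most of the signal for EC growth, migration and permeability, Flt1 (VEGFR1) binds VEGF-A tightly and in its soluble form acts as a decoy, and Flt4 (VEGFR3) is the receptor for VEGF-C, known in lymphatic vessels and in the sinusoids of the marrow. The neuropilins Nrp1 and Nrp2 have no kinase of their own and present VEGF ligands and class 3 semaphorins to other receptors. In the BM, VEGF signalling is known for its part in the upkeep and regrowth of the sinusoids.

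Read counts per library were between 21581653 and 25959818, and 3 counts, taken as the smallest level a library could show, were 0.0996 to 0.209 CPM (read counts scaled to library size, with TMM factors). The sort gene Ly6a was at 1133 ± 187 CPM (SD, n = 4) in Sca-1+ and 0.678 ± 0.524 CPM (SD, n = 5) in Sca-1- libraries, and Pecam1, which encodes CD31, was at 1399 ± 261 and 836 ± 613 CPM with overlapping values. Ptprc, which encodes CD45, was at most 2.56 CPM in Sca-1+ and between 17.2 and 47.8 CPM in Sca-1- libraries. Other markers of ECs differed widely: the 25 general endothelial genes made up 2.04 to 2.75% of the counts in Sca-1+ and 0.218 to 0.365% in Sca-1- libraries, with 21 of 25 called higher in Sca-1+ and 1 lower, beside 23.3% of all genes tested called higher and 21.4% lower. The genes of this list not called higher, Esam, Pecam1, Myct1 and Fli1, were also its highest in Sca-1-, and its Sca-1- share rests largely on them. Esam was at 1031 ± 845, Myct1 at 507 ± 428 and Fli1 at 379 ± 221 CPM in Sca-1-, beside 7.14 ± 3.92 CPM for the EC cadherin gene Cdh5. Megakaryocyte genes made up 0.00519 to 0.0119% and 3.16 to 6.82%, and all 16 were lower in Sca-1+. Of the other marker lists, leaving out the VEGF members, 10 of 12 arterial, 9 of 10 sinusoidal, 8 of 11 pericyte and 4 of 12 stromal genes were called higher in Sca-1+, while 12 of 14 leukocyte, 10 of 14 erythroid, 5 of 6 lymphatic, 3 of 12 stromal and 1 of 10 sinusoidal genes were lower. The stromal shares, 33.3% higher and 25% lower, are near those of all genes. The label of the Sca-1- cells as ECs thus stands beside low EC markers and high megakaryocyte markers, and the part of either in the results below was not tested beyond the scaling to endothelial genes. In bulk RNA, fewer cells of a type and less RNA per cell cannot be told apart. Titles of Sca-1+ and Sca-1- samples begin with numbers from separate ranges, and a batch along these numbers and the fraction cannot be told apart.

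Of the 9 VEGF genes, 8 were higher in Sca-1+ ECs by edgeR's quasi-likelihood test with p-values adjusted by Benjamini-Hochberg over every gene tested, beside 23.3% of all genes, and 0 were lower, also at an unadjusted p under 0.05, beside 21.4% of all genes. DESeq2 likewise called 8 higher and 0 lower, with 25.0% of all genes higher and 26.7% lower. In each of the 8 every Sca-1+ library was above every Sca-1- library, a pattern shown by 24.8% of the genes tested. Vegfb was the exception. These directions are on the CPM scale of the whole library. Scaled to the general endothelial genes instead, 2 of the 9 were called higher (1.66% of all genes) and 4 lower (87.0% of all genes), and the fold changes of Kdr, Flt4, Nrp2, Vegfa and Pgf changed sign, as given gene by gene further on.

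**Figure D1:**
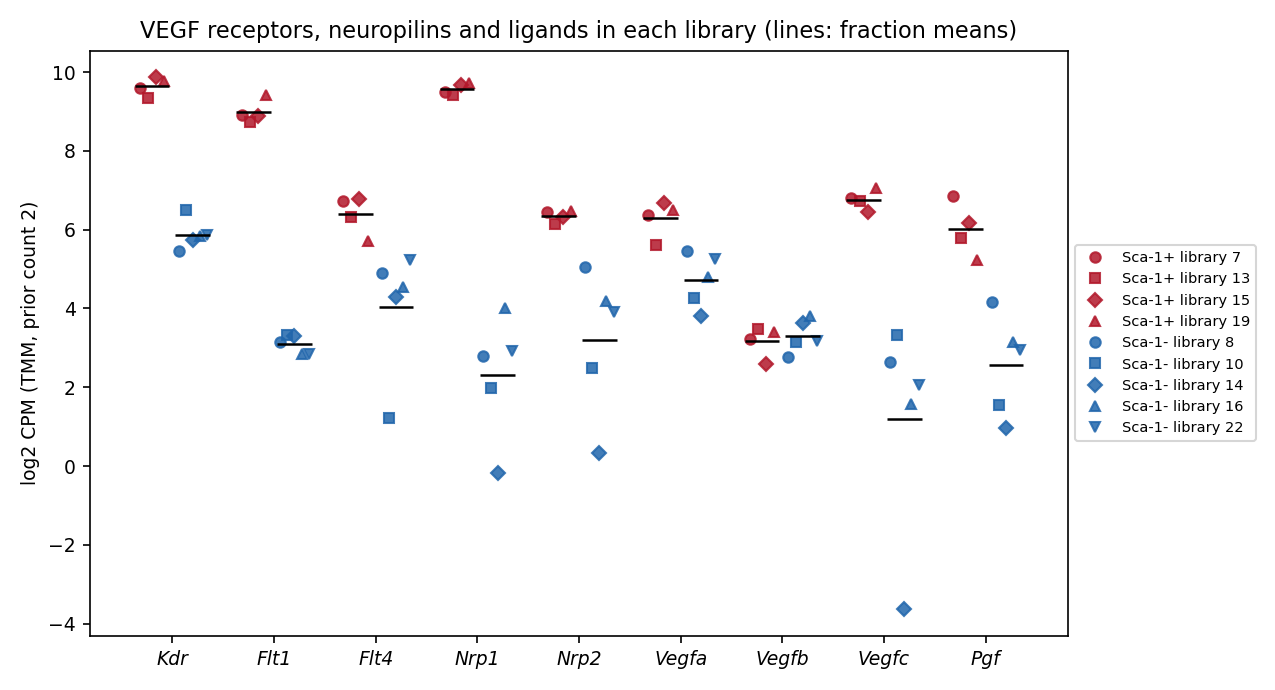
Level of each VEGF gene in each library as log2 CPM (TMM, prior count 2), with Sca-1+ libraries in red, Sca-1- libraries in blue and a line at each fraction's mean. The fractions are apart for every gene but Vegfb, Flt1 varies least within Sca-1- and the lowest point is Vegfc in Sca-1- library 14, which had 0 counts; under the endothelial scaling the differences of Kdr, Flt4, Nrp2, Vegfa and Pgf change sign.

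Among the receptor kinases, Flt1 differed most. It was counted on 13504 bases of exon at chr5:147561604-147726011 on the minus strand (GRCm38). Its level was 480, 427, 469 and 687 CPM in Sca-1+ libraries 7, 13, 15 and 19, and 8.83, 9.91, 9.84, 7.04 and 7.04 CPM in Sca-1- libraries 8, 10, 14, 16 and 22. The fractions were far apart, and the Sca-1- libraries lay within a narrow band of their own. The log2 fold change of Sca-1+ over Sca-1- was 5.92 ± 0.26 (SE, edgeR adjusted p = 3.3e-06), a 60.4-fold difference. Counts per gene do not separate the membrane form of Flt1 from the soluble one.

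Kdr, at chr5:75932827-75978458 on the minus strand, had the highest mean of the 9 per length of exon in both fractions, level with Vegfa in Sca-1-. It was at 778, 645, 933 and 869 CPM in Sca-1+ and at 43.7, 89.8, 52.9, 56.9 and 58.5 CPM in Sca-1- libraries, in the same order of libraries. All Sca-1+ libraries were above all Sca-1- libraries, of which library 10 was the highest. Its log2 fold change was 3.74 ± 0.27 (SE, edgeR adjusted p = 1.6e-05), or 13.4-fold.

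Flt4, at chr11:49609263-49652739 on the plus strand, had the smallest difference of the receptor kinases. Its level was 107, 80.3, 110 and 52.7 CPM in Sca-1+ and 29.8, 2.23, 19.3, 23.2 and 37.2 CPM in Sca-1- libraries. Library 19 was the lowest of the Sca-1+ fraction and library 10, with 32 counts, far below the other Sca-1- libraries. The log2 fold change was 1.97 ± 0.59 (SE, edgeR adjusted p = 0.02) and did not pass without Sca-1+ library 15 (1.84, adjusted p = 0.052). Of markers of lymphatic vessels, Prox1, Ccl21a, Lyve1, Pdpn, Reln and Mmrn1 together made up 0.00814 to 0.0226% of Sca-1+ and 0.137 to 0.252% of Sca-1- counts, and Reln had no count in any Sca-1+ library. Most of this share was Mmrn1, a gene also known in platelets, at 148 ± 55.5 CPM in Sca-1+ and 2109 ± 974 CPM in Sca-1-, whereas Prox1, the defining factor of lymphatic ECs, was at 7.58 ± 1.65 and 13.2 ± 6.43 CPM and was not called (edgeR adjusted p = 0.14).

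Both neuropilins were higher in Sca-1+ ECs, to unequal degrees, and Nrp2 became lower under the endothelial scaling. Nrp1, at chr8:128358604-128503363 on the plus strand, was at 720, 680, 817 and 850 CPM in Sca-1+ and at 6.91, 3.84, 0.806, 16.1 and 7.45 CPM in Sca-1- libraries. Its Sca-1- values spread widely, from 19 counts in library 14 to 485 in library 16, and all stayed far below Sca-1+. With a log2 fold change of 6.76 ± 0.73 (SE, edgeR adjusted p = 8.6e-05), or 109-fold, it showed the widest gap of the 9 genes. The microRNA gene Mir1903 shares 80 exon bases with Nrp1 on the same strand.

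Nrp2, at chr1:62703285-62818695 on the plus strand, was at 87.5, 70.6, 79.3 and 88.3 CPM in Sca-1+ libraries. In Sca-1- libraries it was at 33.0, 5.52, 1.19, 18.3 and 15.1 CPM. The Sca-1+ values varied by 10.2% (SD over mean) and the Sca-1- values by 84.9%, with library 8 the highest and library 14 the lowest. The log2 fold change was 2.48 ± 0.69 (SE, edgeR adjusted p = 0.014), and it did not pass without libraries 19 and 10 (2.16, adjusted p = 0.067).

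The promoters of Flt1, Kdr and Vegfb are printed because these genes run from a wide gap between the fractions to no detectable one. Each is the 250 bases before the RefSeq start on the gene's own strand (GRCm38.p6), all on the minus strand, at chr5:147726012-147726261 for Flt1, chr5:75978456-75978705 for Kdr and chr19:6987652-6987901 for Vegfb. Capitals mark GGAA or its reverse complement TTCC, the core bound by ETS factors.
Flt1: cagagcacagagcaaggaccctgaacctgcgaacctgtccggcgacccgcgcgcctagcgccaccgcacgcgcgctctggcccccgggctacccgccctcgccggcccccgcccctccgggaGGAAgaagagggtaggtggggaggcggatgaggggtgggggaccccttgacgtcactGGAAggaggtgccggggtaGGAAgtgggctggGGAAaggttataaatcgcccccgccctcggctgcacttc
Kdr: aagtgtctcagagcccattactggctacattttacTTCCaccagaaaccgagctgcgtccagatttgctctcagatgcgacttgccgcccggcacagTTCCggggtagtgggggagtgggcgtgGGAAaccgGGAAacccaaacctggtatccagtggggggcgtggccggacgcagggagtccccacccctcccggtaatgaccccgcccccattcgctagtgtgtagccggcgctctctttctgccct
Vegfb: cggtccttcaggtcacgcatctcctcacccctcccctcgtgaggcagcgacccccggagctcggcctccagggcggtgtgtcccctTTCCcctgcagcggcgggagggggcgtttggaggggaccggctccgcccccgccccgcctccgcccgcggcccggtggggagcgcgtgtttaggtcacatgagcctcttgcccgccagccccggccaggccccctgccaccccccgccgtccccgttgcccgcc
The core was found 4 times in each of Flt1 and Kdr and 1 time in Vegfb, beside a median of 3 times over all promoters. The RefSeq start lies downstream of the GENCODE gene start for some genes, so that the windows of Nrp1, Flt4 and Pgf (not printed) lie wholly within the annotated gene span, and those of Nrp2 and Kdr by 32 and 3 bases. All 9 VEGF genes had a promoter in the RefSeq set, and 8 of them held the core, as did 93.5% of the 32841 promoters of the same length. Vegfa held 6, Nrp1 4, Flt4 2, Nrp2 and Vegfc 1 each and Pgf 0. The GC box GGGCGG, searched on both strands like the other motifs, was in all 9 and in 32.7% of all promoters. These promoters held 59.2 to 76.4% G and C beside a median of 52.4% over all. The hypoxia response core ACGTG was in 0 of the 9 windows and in 16.6% of all promoters. Vegfb held 1 ETS core, as did Nrp2 and Vegfc, and a link between the cores and the difference between the fractions was not tested.

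The ligands did not move as one group. Vegfa, the main ligand of Kdr and Flt1, lies at chr17:46016993-46032369 on the minus strand. It was at 83.2, 49.2, 103 and 89.8 CPM in Sca-1+ and at 43.8, 19.2, 13.96, 27.6 and 38.1 CPM in Sca-1- libraries. The lowest Sca-1+ library, 13, was only just above the highest Sca-1- library, 8. The log2 fold change was 1.51 ± 0.36 (SE, edgeR adjusted p = 0.0061), or 2.85-fold.

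Vegfc, which binds Flt4 and, once processed, Kdr, lies at chr8:54077606-54187096 on the plus strand and showed the widest gap of the ligands. It was at 112, 106, 87.2 and 134 CPM in Sca-1+ libraries. The Sca-1- libraries 8, 10, 16 and 22 were at 6.19, 9.98, 2.92 and 4.07 CPM, and library 14 had 0 counts, which allows a level of up to 0.127 CPM. The log2 fold change was 4.58 ± 0.91 (SE, edgeR adjusted p = 0.0024).

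Pgf encodes placental growth factor, a ligand of Flt1 and not of Kdr, and lies at chr12:85166635-85177790 on the minus strand. It was at 115, 55.7, 72.1 and 37.6 CPM in Sca-1+ and at 17.7, 2.86, 1.87, 8.80 and 7.61 CPM in Sca-1- libraries. Among Sca-1+ libraries it was the most variable of the 9 genes, at 47.4% (SD over mean). The log2 fold change was 3.17 ± 0.62 (SE, edgeR adjusted p = 0.0022), or 9.03-fold.

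Vegfb, another ligand of Flt1, lies at chr19:6982473-6987651 on the minus strand. Its level was 9.27, 11.1, 5.94 and 10.5 CPM in Sca-1+ and 6.79, 8.87, 12.3, 14.05 and 8.88 CPM in Sca-1- libraries. The fractions overlapped through most of their range. No difference was detectable, with a log2 fold change of -0.15 ± 0.32 (SE, edgeR adjusted p = 0.73) and a 95% interval from -0.90 to 0.60. The remaining ligand, Vegfd, listed under its older symbol Figf, was left out of the test by the filter, with 5, 25, 14 and 37 counts in Sca-1+ libraries 7, 13, 15 and 19, 1 count in Sca-1- library 22 and 0 in the other Sca-1- libraries.

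Within a fraction the libraries did not keep one order over the VEGF genes. Sca-1+ library 19 was the highest for 4 genes (Flt1, Nrp1, Nrp2 and Vegfc) and the lowest for 2 (Flt4 and Pgf). Library 13 was the lowest Sca-1+ library for 5 genes and the highest for Vegfb. Among Sca-1- libraries, library 14 was the lowest for 5 genes (Nrp1, Nrp2, Vegfa, Vegfc and Pgf) and the highest for none. Library 10 was the highest for Flt1, Kdr and Vegfc and the lowest for Flt4. General endothelial genes were at 0.253% of the counts in library 14 and 0.365% in library 10, beside 0.218 to 0.285% in the others. The members of this list did not agree in library 10: among Sca-1- libraries it had the highest Pecam1, at 1701 CPM, and the lowest Cdh5, at 2.44 CPM. It also had the highest share of megakaryocyte genes, 6.82%. The 10 sinusoidal genes were at 0.0178% in library 14 and at 0.00449%, the lowest share of the 9 libraries, in library 10. The stromal genes were at 0.332 and 0.548% in libraries 14 and 10 and at 2.06 to 2.86% in the other Sca-1- libraries.

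Levels were then compared between genes as CPM per kb of exon. In Sca-1+ ECs the order was Kdr at 89.3 ± 13.8 (SD, n = 4), Nrp1 at 78.3 ± 8.15, Vegfc at 44.8 ± 7.85, Flt1 at 38.2 ± 8.62, Pgf at 24.2 ± 11.5, Vegfa at 18.97 ± 5.35, Flt4 at 10.6 ± 3.25, Nrp2 at 6.87 ± 0.699 and Vegfb at 5.73 ± 1.43 CPM per kb. Of the 8 steps in this order only that from Nrp1 to Vegfc separated the ranges of the neighbours, although Kdr was above Nrp1, Vegfc above Flt1 and Vegfa above Flt4 within each of the 4 libraries. In Sca-1- cells Kdr at 6.69 ± 1.93 (SD, n = 5), Vegfa at 6.65 ± 2.92 and Vegfb at 6.35 ± 1.83 CPM per kb were close together. Flt4 at 2.72 ± 1.60, Pgf at 2.68 ± 2.17, Vegfc at 1.89 ± 1.52, Nrp2 at 1.23 ± 1.05, Nrp1 at 0.718 ± 0.586 and Flt1 at 0.632 ± 0.106 CPM per kb followed. Every neighbouring pair in the Sca-1- order overlapped. Nrp1 was thus the second of 9 in Sca-1+ and the eighth in Sca-1-, and Vegfb the last and the third.

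**Figure D2:**
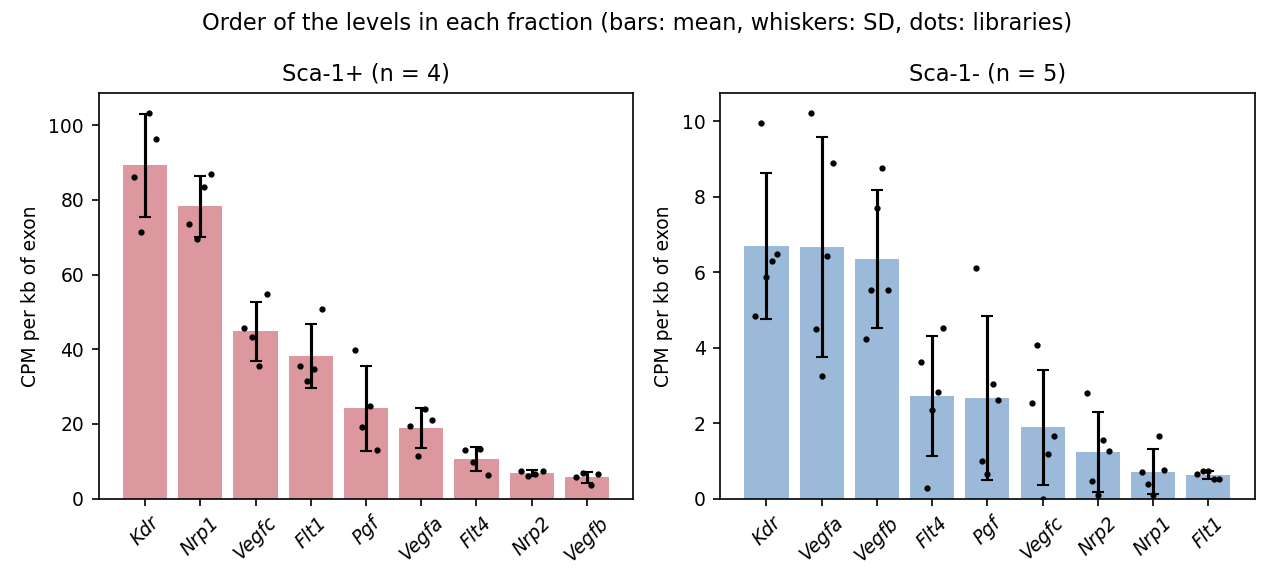
Levels of the 9 VEGF genes as CPM per kb of exon in descending order in each fraction, on separate linear axes; bars are means, whiskers SD and dots libraries. Kdr leads both fractions, at 89.3 and 6.69 CPM per kb, while Nrp1 and Flt1 stand ahead of Flt4 in Sca-1+ and last in Sca-1-.

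Shares within each group of genes, also per kb, show how the make-up differed. Of the receptor kinase signal in Sca-1+ ECs, Kdr made up 64.6% ± 2.49 (SD, n = 4), Flt1 27.6% ± 4.24 and Flt4 7.82% ± 2.47. In Sca-1- cells Kdr made up a similar 66.2% ± 14.8 (SD, n = 5), with Flt1 at 6.39% ± 1.44 and Flt4 at 27.4% ± 15.1. The Flt1 shares of the fractions did not overlap (22.9 to 33.1% and 4.53 to 8.15%), whereas the Flt4 share of Sca-1- library 10, 2.48%, fell below all Sca-1+ libraries. Nrp1 made up 91.9% ± 0.726 of the neuropilin signal in Sca-1+ and 40.0% ± 12.2 in Sca-1-. Among the ligands, Vegfc led in Sca-1+ with 48.2% ± 8.64 beside 10.6% ± 10.1 in Sca-1-. Vegfb went from 6.21% ± 1.90 in Sca-1+ to 39.2% ± 18.1 in Sca-1-. Vegfa made up 20.3% ± 5.67 and 36.6% ± 8.79, and Pgf 25.3% ± 9.32 and 13.6% ± 8.43, in Sca-1+ and Sca-1- respectively.

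**Figure D3:**
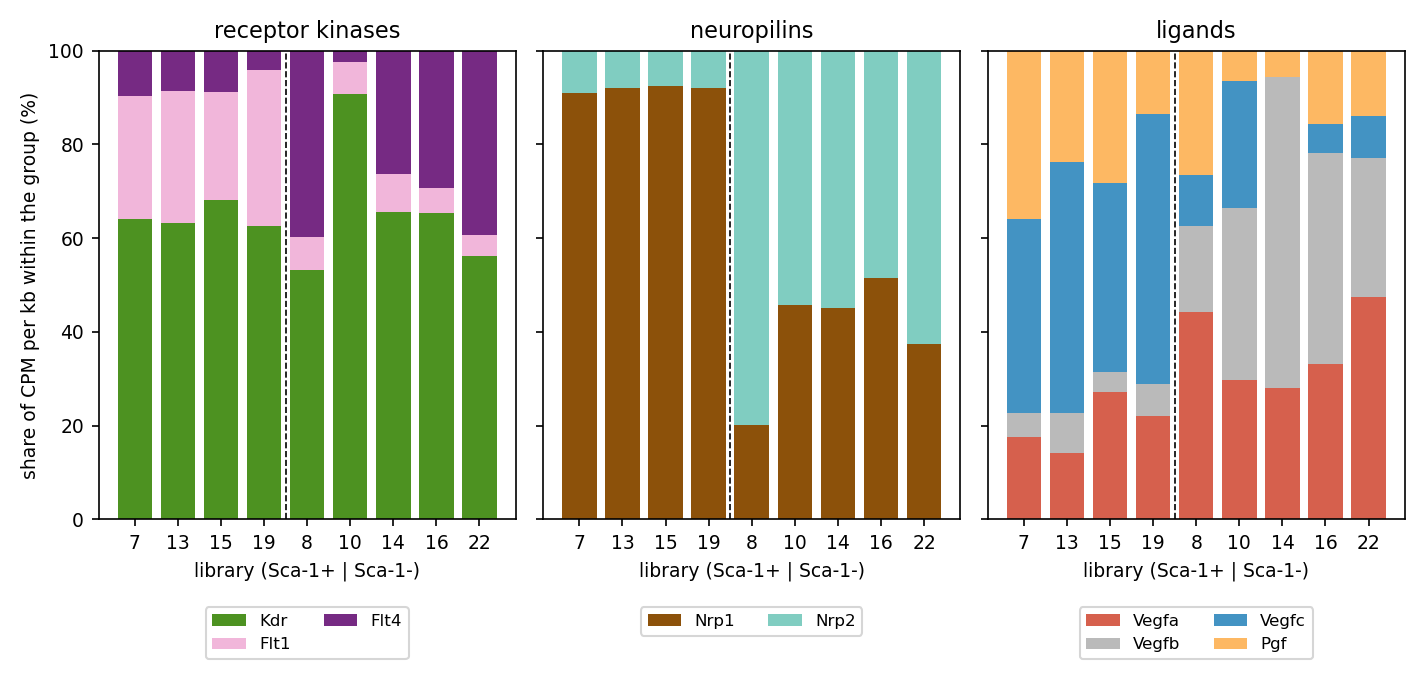
Share of each gene in the summed CPM per kb of the receptor kinases, the neuropilins and the ligands, as a percentage in each library, with Sca-1+ libraries left of the dashed line. Nrp1 fills 90.9 to 92.6% of the neuropilin bar in Sca-1+ and 20.2 to 51.6% in Sca-1-, and Vegfb reaches 66.4% of the ligand bar in Sca-1- library 14.

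Ratios of 2 counts within a library do not depend on the scaling between libraries, and 10 of them were compared by an exact two-sided permutation test of the fraction labels, for which the smallest possible p is 0.0079. The log2 ratio of Flt1 to Kdr was -0.66 ± 0.27 (SD, n = 4) in Sca-1+ and -2.79 ± 0.40 (SD, n = 5) in Sca-1-, a difference of 2.14 (exact permutation p = 0.0079, adjusted over the 10 ratios 0.026), and the fractions did not overlap. That of Nrp2 to Nrp1 was -3.24 ± 0.14 and 0.90 ± 0.81, a difference of -4.14 with the same p and adjusted p. Nrp2 counts were thus below Nrp1 counts in 4 of 4 Sca-1+ libraries and above them in 5 of 5 Sca-1- libraries. Per kb of exon, which is longer in Nrp2, Nrp1 was the higher in Sca-1- library 16, at 51.6% of the neuropilin signal. Among the ligands, the log2 ratio of Vegfc to Vegfa was 0.47 ± 0.56 and -3.91 ± 3.19 (difference 4.38, exact permutation p = 0.016, adjusted 0.026). It stayed apart in all libraries, and the zero count of library 14 gave the lowest value, -9.36, which the offset of 0.5 counts sets. Without library 14 the difference was 3.02 (exact permutation p = 0.029), and with an offset of 2 counts and all libraries it was 3.97. Without any 1 of the 4 Sca-1+ libraries the difference was 4.17 to 4.62 with an exact permutation p of 0.071. Vegfa to Vegfb was 3.13 ± 0.80 and 1.41 ± 0.99 (difference 1.72, exact permutation p = 0.032, adjusted 0.045), with overlapping values, and leaving out 1 library raised the exact permutation p to 0.054 or 0.057 for 7 of the 9 libraries, all but 13 and 8. The log2 ratio of Flt4 to Kdr was -3.25 ± 0.54 in Sca-1+ and -1.85 ± 1.97 in Sca-1- (difference -1.40, exact permutation p = 0.22, adjusted 0.25). It rested on library 10, at -5.31, without which the difference was -2.26 (exact permutation p = 0.029, unadjusted).

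Against Cdh5, the junctional cadherin of ECs that pairs with Kdr, the receptors again did not move together. The log2 ratio of Nrp1 to Cdh5 was 1.54 ± 0.07 (SD, n = 4) in Sca-1+ and -0.37 ± 1.34 (SD, n = 5) in Sca-1-, a difference of 1.91 (exact permutation p = 0.016, adjusted 0.026). For Kdr the difference was -1.63 (1.60 ± 0.10 and 3.23 ± 1.18) and for Flt4 -3.02 (-1.65 ± 0.51 and 1.38 ± 1.01), each with an exact permutation p of 0.016 and an adjusted p of 0.026. The exact permutation p was 0.054 for Kdr without any 1 of the Sca-1+ libraries (-1.65 to -1.58) and for Nrp1 without library 19 (1.88). Without Sca-1- library 14 the Nrp1 difference was 1.32, and without library 10 the Kdr difference was -1.14, each with an exact permutation p of 0.029. Nrp2 to Cdh5 differed by -2.23 (-1.70 ± 0.16 and 0.53 ± 1.62, exact permutation p = 0.048, adjusted 0.06). Flt1 to Cdh5 was 0.95 ± 0.28 and 0.43 ± 1.08, a difference of 0.51 (exact permutation p = 0.4, adjusted 0.4). Cdh5 itself was at 2.44 to 13.1 CPM in Sca-1- and 235 to 297 CPM in Sca-1+ libraries. With the geometric mean of the general endothelial genes in its place, the difference was -0.32 for Kdr (exact permutation p = 0.87), -0.92 for Nrp2 (0.39) and 1.82 for Flt1 (0.016), unadjusted, while Nrp1 (3.21, p = 0.0079) and Flt4 (-1.71, p = 0.04) kept their direction and their call. At an unadjusted exact permutation p under 0.05, the calls for Kdr, Nrp2 and Flt1 relative to endothelial genes thus turned on the reference used. Those for Nrp1 and Flt4 did not. After adjustment, Nrp2 to Cdh5 had not passed. By edgeR under the scaling to the same endothelial genes, Nrp2 was called lower (-1.57), as given below.

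**Figure D4:**
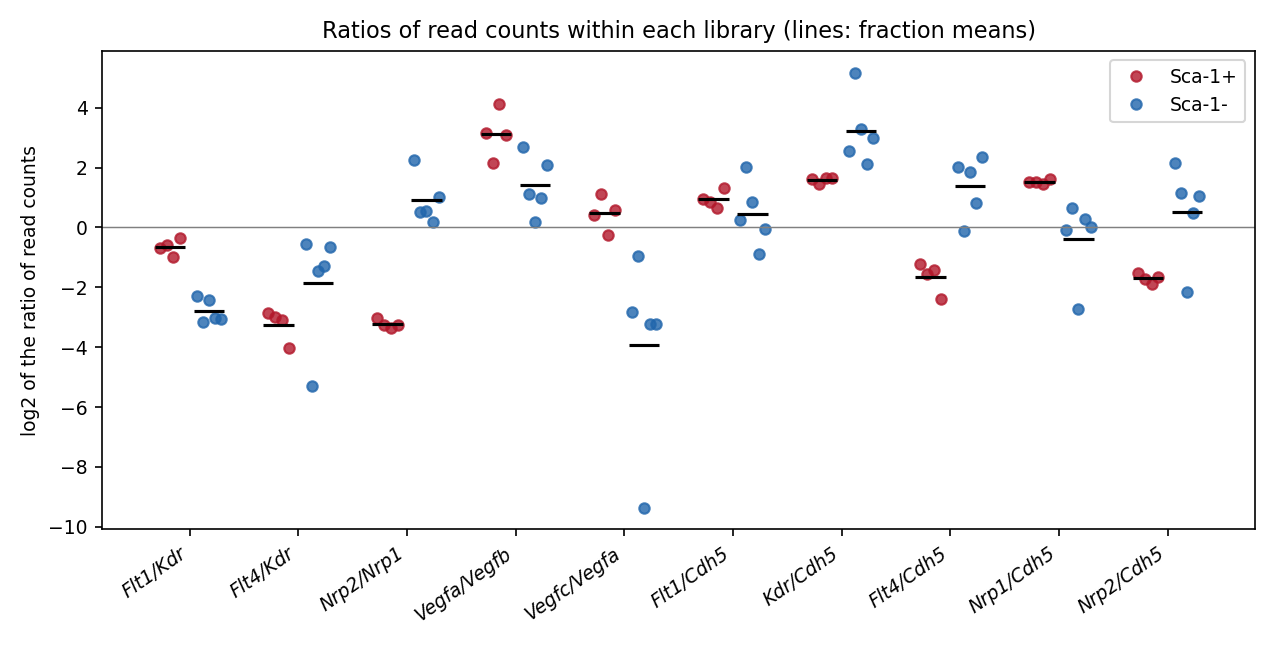
Log2 ratio of the read counts of 2 genes within each library, Sca-1+ in red and Sca-1- in blue, with a line at each fraction's mean. Flt1/Kdr, Nrp2/Nrp1, Vegfc/Vegfa, Kdr/Cdh5, Flt4/Cdh5 and Nrp1/Cdh5 show no overlap between the fractions, and the isolated low points are library 10 for Flt4/Kdr and library 14 for Vegfc/Vegfa and for Nrp1/Cdh5.

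When the libraries were scaled so that the geometric mean of the 25 general endothelial genes was level, the median log2 fold change of all genes went down by 4.14, to -4.07. The 25 genes were not level one by one: 11 were still called higher in Sca-1+ and 5 lower, with a median log2 fold change of 0.53. Under this scaling the VEGF genes fell into 3 groups. Flt1 (log2 fold change 1.68 ± 0.43, SE, edgeR adjusted p = 0.003) and Nrp1 (2.78 ± 0.58, adjusted p = 7.9e-04) stayed higher in Sca-1+. Vegfc (0.08 ± 1.03, adjusted p = 0.95), Kdr (-0.59 ± 0.50, adjusted p = 0.27) and Pgf (-0.91 ± 0.60, adjusted p = 0.17) did not pass in either direction. Flt4 (-1.93 ± 0.49, adjusted p = 0.0029), Nrp2 (-1.57 ± 0.69, adjusted p = 0.05 after rounding, under the threshold), Vegfa (-2.60 ± 0.43, adjusted p = 1.3e-04) and Vegfb (-4.26 ± 0.47, adjusted p = 7.2e-06) were lower, the last at the level of the median gene. The endothelial genes were chosen with earlier results of these data known. Scaling by library size alone moved the median by 0.36, from 0.07 to 0.43, changed the calls over all genes from 3721 higher of 7137 to 4158 higher of 6589, and gave Vegfb a log2 fold change of 0.17 (adjusted p = 0.79).

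**Figure D5:**
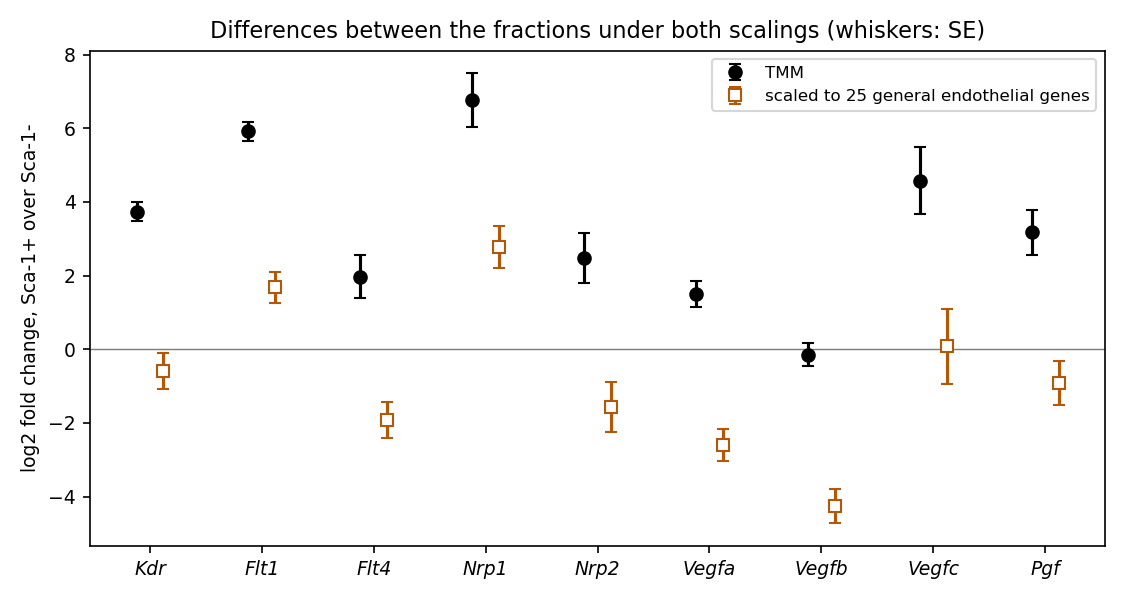
Log2 fold change of Sca-1+ over Sca-1- for each VEGF gene, scaled by TMM (black circles) and to the 25 general endothelial genes (open squares), with whiskers for SE. Under the endothelial scaling only Flt1 and Nrp1 stay clearly above 0, Vegfc and Kdr are near it, and Flt4, Nrp2, Vegfa, Pgf and Vegfb are below it.

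Beyond the 9 genes, 6 lists of VEGF pathway genes held 140 symbols, of which 136 were tested; 56 were called higher in Sca-1+, 33 lower and 47 neither, with a median log2 fold change of 0.49 beside 0.07 over all genes. Over all genes 23.3% were called higher and 21.4% lower by TMM, and 1.66% and 87.0% under the endothelial scaling, and each list below is to be read against these shares. Scaled to the endothelial genes, 12 of the 136 were called higher and 101 lower. Of the genes that process or store the ligands, 4 of 10 (40%) were higher, among them Hspg2, the heparan sulphate proteoglycan perlecan, at 24.5 ± 5.03 CPM in Sca-1+ and 1.95 ± 1.68 CPM in Sca-1- (log2 fold change 3.65), and Plaur, the urokinase receptor (3.61). Under the endothelial scaling 0 of the 10 were higher and 5 lower, and Hspg2 was at -0.33 and Plaur at -0.37, neither called. Another 2 (20%, near the share of all genes) were lower, Adamts3 and Adamts14, both proteases related to the cleavage of VEGF-C; Adamts14 was at 0.404 ± 0.513 and 23.9 ± 13.4 CPM (-5.86).

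Of the partners of the receptors, 13 of 24 (54.2%) were higher, beside 23.3% of all genes, and 5 (20.8%) lower, near the 21.4% of all genes. Mcam, a Kdr co-receptor, was higher (log2 fold change 5.67), and so was Sema3g, a class 3 semaphorin, at 23.5 ± 4.67 CPM in Sca-1+ and 0.00814 ± 0.0182 CPM in Sca-1-, where it was at or under the floor. Itgb3, the integrin subunit beta 3, which platelets carry in abundance, was at 5.10 ± 1.02 and 1684 ± 1267 CPM (-8.37), and Ptprj, a phosphatase of Kdr also known in platelets, at 0.940 ± 0.425 and 106 ± 77.4 CPM (-6.81). The endothelial phosphatase Ptprb, which acts on Kdr and Tie2, was among the 13 (5.34). Scaled to endothelial genes, 4 of the 24 were higher and 13 lower, with Mcam still higher (1.69).

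In the signalling cascade below the receptors, 11 of 50 genes (22%) were higher, near the 23.3% of all genes, and 19 (38%) lower, beside 21.4%, with a median log2 fold change of -0.42. Under the endothelial scaling 1 was higher and 47 lower, beside 87.0% of all genes lower. Nos3, endothelial nitric oxide synthase (log2 fold change 5.28), and the heat shock protein gene Hspb1 (4.76) had the largest log2 fold changes of the list. Src, a tyrosine kinase (-6.92), and Prkca, protein kinase C alpha (-6.69), had the lowest. Nos3 also belongs to the general endothelial list. Under the endothelial scaling Nos3 was at 1.44 (edgeR adjusted p = 0.031) and Hspb1 at 0.83, not called (0.062), while Src and Prkca stayed lower. Plcg1, the phospholipase that docks on Kdr, was at 85.2 ± 16.4 and 19.8 ± 7.96 CPM (2.10). Megakaryocyte genes moved with the lower genes of this list, as given above, and their part in it was not tested. Exons of Nos3 overlap those of Atg9b and Gm15587 on the other strand by 1334 bases, so the Nos3 counts are uncertain. Those of Mcam, Prkca, Dll4, Dusp1, Ptpn6, Thbs1 and Egln2 overlap other genes on the opposite strand by 11 to 214 bases.

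Transcripts known to be induced by VEGF leaned one way: 17 of 23 were higher in Sca-1+ and 0 lower by edgeR, also at an unadjusted p under 0.05, and by DESeq2, with a median log2 fold change of 2.60 beside 0.07 over all genes. The share higher was 73.9% beside 23.3% of all genes. It was below that of the general (84%), arterial (83.3%) and sinusoidal (90%) endothelial lists, so the lean is not particular to VEGF-induced genes. Under the endothelial scaling 6 of the 23 were higher and 12 lower, beside 1.66 and 87.0% of all genes. The 2 with the widest gaps by the naming rule were Adamts1, at 794 ± 378 CPM in Sca-1+ and 12.9 ± 7.93 CPM in Sca-1- (5.94), and Dll4, the Notch ligand of tip cells, at 177 ± 26.0 and 3.39 ± 1.66 CPM (5.70). Plvap, the protein of fenestral diaphragms, also belongs to the general endothelial list (5.004), and Dll4 to the arterial list. Mef2c was at 166 ± 18.7 and 208 ± 69.1 CPM and was not called (-0.33, edgeR adjusted p = 0.32).

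Feedback inhibitors were higher in 8 of 18 (44.4%) and lower in 5 (27.8%), beside 23.3 and 21.4% of all genes, and 0 were higher and 15 lower under the endothelial scaling, beside 1.66 and 87.0%. Dusp1, a phosphatase of MAP kinases, was at 4143 ± 795 and 411 ± 107 CPM (log2 fold change 3.34, and -0.97 with no call under the endothelial scaling), and Spry4, an inhibitor of the Ras pathway, was also higher (5.27). Thbs1, thrombospondin 1, a blocker of angiogenesis that platelets store, was lower (-6.19), as was the blood cell phosphatase Ptpn6 (-4.95). Among the regulators of the hypoxia response, 3 of 11 (27.3%) were higher and 2 (18.2%) lower, near the shares of all genes, with 1 higher and 9 lower under the endothelial scaling. Epas1, which encodes the EC factor HIF-2 alpha, was at 193 ± 22.8 and 2.42 ± 1.10 CPM (6.30) and Egln1, one of the prolyl hydroxylases that mark HIF for removal, was higher by TMM (2.38) and lower under the endothelial scaling (-1.64), whereas Egln2 (-1.34) and Egln3 (-3.38) were lower.

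The genes most like each VEGF gene were found by the root mean square difference of centred log2 CPM over the 9 libraries, among 9858 genes. For Flt1 these were Pcdh17 (0.46) and Dll4 (0.55), for Kdr Dusp1 (0.26) and Gm13066 (0.30), and for Flt4 Klhl4 (0.41) and Itga9 (0.46). Nrp1 was nearest to Adamts9 (0.58) and Sparcl1 (0.58), and Nrp2 to Xylt2 (0.37) and Foxc1 (0.41). Vegfa was nearest to Slc41a1 (0.18) and Pald1 (0.28), Vegfb to Rnf220 (0.17) and Apip (0.20), Vegfc to Ankrd37 (0.75) and Pik3r3 (0.80), and Pgf to Mxra8 (0.37) and Npnt (0.41). The profiles span both fractions, so nearness depends in part on a like difference between them. No pair of VEGF genes shared a nearest gene, which among 9858 candidates says little about the VEGF genes. Exons of Gm13066, Adamts9, Ankrd37, Pik3r3, Mxra8 and Rnf220 overlap other genes, and Dll4 and Dusp1 do so too, which leaves their counts uncertain.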

How the data were processed

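RNA-seq libraries of CD45-Ter119-CD31+ BM ECs from B6 wild type mice were analysed, 4 Sca-1+ and 5 Sca-1- by the labels. Libraries were prepared with SMART-Seq v4 from 2 ng of total RNA, a kit that primes on poly(A) and marks neither strand nor molecules. The authors deposited 1 table of raw read counts per gene for the 9 libraries; the submitters' processing notes name STAR, featureCounts and mm10, and versions, annotation and strand setting are not given in the sources used here. Overlapping genes are therefore uncertain, and depth gives the precision of counting alone, PCR copies included.

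Tests were run with edgeR 4.0.16 (R 4.3.3): filterByExpr (minimum count 10, minimum total 15), TMM, glmQLFit and glmQLFTest, two-sided, with p-values adjusted by Benjamini-Hochberg over 15937 genes and a threshold of 0.05. SE was the log2 fold change over the root of F. Log2 CPM used a prior count of 2, and count ratios an offset of 0.5. DESeq2 1.42.0, limma 3.58.1 (voom), other scalings, filters, library subsets and blocks were alternatives. Coordinates, exon lengths and overlaps came from GENCODE M21 (GRCm38), in which 45229 deposited identifiers were found, and promoters from RefSeq (GRCm38.p6). The fitting steps were tested on simulated data with few changed genes, as many up as down, which cannot test the choice of scaling.

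The VEGF members, pathway and marker lists were chosen with earlier results of these data known. Named genes are the members, the sort genes and, from each pathway list, up to 2 at each end of the log2 fold changes that passed the threshold without overlap of the fractions and had a mean log2 CPM of 3 or more, plus the 2 genes nearest to each member in profile. Vegfd, Cdh5, Adamts3, Ptprb, Plcg1, Plvap, Mef2c and the lymphatic markers were named outside this rule, after their values were seen.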

Additional observations from a re-analysis of the deposited data

Results flagged for a closer look

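In 6 of 38 groups of 4 or 5 libraries 1 library stood apart from the rest by Dixon's criterion, which chance meets in about 1 of 20 groups. These groups share values, as the low Flt4 and Vegfc each count as a level and in a ratio. The number of groups therefore does not show an excess over that rate. In Sca-1- library 10, Flt4 was at a log2 CPM of 1.21 where the other Sca-1- libraries were at 4.28 to 5.22, and the log2 ratio of Flt4 to Kdr was -5.31 where they were at -1.45 to -0.55. Sca-1- library 14, in which Vegfc had 0 counts, gave a log2 CPM of -3.63 for Vegfc beside 1.59 to 3.33, a value set by the prior count. Its log2 ratio of Vegfc to Vegfa was -9.36 beside -3.23 to -0.94, a value set by the offset, and its log2 ratio of Nrp1 to Cdh5 was -2.71 beside -0.10 to 0.64. Among Sca-1+ libraries, library 13 had a log2 ratio of Kdr to Cdh5 of 1.46 where the others lay within 1.64 to 1.66. Libraries 10, 13 and 14 all have the title label other than wt. Library 22 has CD452 too and did not stand apart, and a link to the labels was not tested.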

How the results depend on the processing

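Under 22 alternative settings, 184 of the 198 values for the 9 VEGF genes kept their direction and their side of the threshold, among them all for Flt1 (log2 fold change 1.68 to 6.33) and Nrp1 (2.78 to 7.33). Scaling to the general endothelial genes called 2 VEGF genes higher and 4 lower, and 12 and 101 of the other pathway genes. It reversed Kdr (-0.59), Flt4 (-1.93), Nrp2 (-1.57), Vegfa (-2.60) and Pgf (-0.91), and brought Vegfb past the threshold (-4.26) and Vegfc below it (0.08). Vegfb also changed sign by library size alone (0.17) and without Sca-1+ library 15 (0.018; range leaving out 1 library -0.35 to 0.018). With libraries 15 and 16, whose titles share a number, as a block, 8 VEGF genes were higher and 0 lower by edgeR, as without it. Libraries with consecutive end numbers had low correlations of deviations (0.15, 0.15 and 0.04, the last for libraries 15 and 16). These values cannot decide whether the libraries were paired by mouse. With consecutive end numbers as a replicate block in 6 libraries, 4340 genes were called beside 5360 without the block. Nrp2 did not pass (2.89, edgeR adjusted p = 0.08), nor without the block (2.17, 0.12), where Vegfa did not pass either (1.46, 0.053).

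Leaving out 1 library at a time, the difference in log2 ratio ranged from -2.26 to -1.07 for Flt4/Kdr, 1.39 to 2.05 for Vegfa/Vegfb, 3.02 to 5.13 for Vegfc/Vegfa, -1.90 to -1.14 for Kdr/Cdh5, 1.32 to 2.16 for Nrp1/Cdh5 and -2.91 to -1.83 for Nrp2/Cdh5. Leaving out libraries 19 and 10 together, chosen after seeing the data, it was -2.00 for Flt4/Kdr (exact permutation p = 0.029), and did not pass for Vegfa/Vegfb (1.66), Kdr/Cdh5 (-1.16), Nrp1/Cdh5 (2.13) and Nrp2/Cdh5 (-2.10). With the mean of the endothelial genes as reference it was 1.82 for Flt1, -0.32 for Kdr and -0.92 for Nrp2. Nrp1 (3.21) and Flt4 (-1.71) kept their calls at an unadjusted exact permutation p. With fewer libraries the smallest possible p is larger. Low counts limit the precision of Vegfc, Nrp1 and Nrp2 in Sca-1- library 14, at 0, 19 and 28 counts. The total of this library, 23869550 counts, was within the range of the others.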
